A study of Mus musculus with 8 samples.

Results

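The 4 plasma microRNAs (miRNAs) mmu-miR-7058-5p, mmu-miR-202-3p, mmu-miR-6354 and mmu-miR-5100 were chosen because every pool from imatinib-treated mice lay above both control pools. They are 4 of 1881 mouse miRNAs on the array and 4 of the 294 that could be tested. The plasma came from female mice of the outbred NMRI stock, aged 3 months. Imatinib (IMB), which inhibits BCR-ABL, KIT and other tyrosine kinases, was given by mouth in water at 100 mg/kg a day for 9 days. Doxorubicin (DOX), which poisons topoisomerase II, was injected into the tail vein in saline at 3 mg/kg, 4 times on alternate days. Control mice (CTRL) received only the solvents. For each array, RNA was taken from 300 µl of plasma of 3 mice combined, with 3 such pools of IMB, 3 of DOX and 2 of CTRL, so no value belongs to 1 animal. The drugs differed in route, vehicle and schedule as well as in compound, and these cannot be told apart in a comparison of IMB with DOX.

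miRNAs are short RNAs that pair with messenger RNAs, mostly through bases 2 to 8 (the seed), and lower their output. In plasma they travel in vesicles and in protein complexes, shed by blood cells and by solid tissue. A higher level in plasma can come from more release, slower loss or more of the cells that release it, and fewer cells of a type and less RNA per cell cannot be told apart here. miR-202 is best known from ovary and testis and its seed resembles that of let-7, a family that restrains growth genes. miR-7058, miR-6354 and miR-5100 are later entries of the miRNA catalogue with little known of their function.

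The mature sequences are shown first because the members share no seed and one of them resembles another class of RNA. They are RefSeq's, on the build GRCm38.p6, which held 1608 of the 1881 mouse names on the array and all 4 members. Seeds are in capitals.
miR-7058-5p: uAGAGGGGaggugaccguggaagu
miR-202-3p: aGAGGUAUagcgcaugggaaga
miR-6354: uGCCCUGGggaucaggucucu
miR-5100: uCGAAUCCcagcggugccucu
Their lengths were 24, 22, 21 and 21 bases and their GC shares 58.3%, 50%, 61.9% and 61.9%. The 4 seeds all differed, so the members form no family by sequence. Of the other mouse miRNAs on the array with a RefSeq sequence, 1 shared a seed with a member: let-7j, with miR-202-3p.

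The miR-202-3p seed is set beside those of let-7j and let-7a-5p, again in capitals, to show that resemblance.
let-7j: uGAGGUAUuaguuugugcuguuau
let-7a-5p: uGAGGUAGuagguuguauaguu
Counted from 1 at the 5′ end over the first 8 bases, miR-202-3p differed from let-7a-5p at U1A and G8U, so 1 of the differences lies inside the seed. let-7j was not detected: of 239 spots kept over 8 arrays, 0 were well above background, and its highest scaled intensity was 5.86.

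The hairpin of miR-7058 lies on the minus strand at chr7:126367971-126368045 (GRCm38.p6), within Lat on the same strand; Lat encodes an adaptor of T-cell receptor signalling. It is printed because its first and last bases (capitals) are GU and AG, the letters at the ends of most introns, as in mirtrons, hairpins made by splicing.
Mir7058: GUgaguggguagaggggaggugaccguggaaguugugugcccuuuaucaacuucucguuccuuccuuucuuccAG
Of 1005 mouse hairpins in the same table, 30 (2.99%) start with GU and end with AG. The match describes these letters and does not show how the RNA is made.

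The hairpin of miR-5100 lies on the plus strand at chr11:60728663-60728726, within Mief2 on the same strand; Mief2 encodes a mitochondrial division factor. In it the motif GTTCGANTCC (capitals, searched on both strands, N for any base) stands for the T arm shared by most transfer RNAs.
Mir5100: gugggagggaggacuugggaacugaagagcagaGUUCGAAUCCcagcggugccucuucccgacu
It was the only 1 of 1005 hairpins to hold the motif in the sense direction (0.0995%), and 0 held it antisense. Of the 10 motif bases, 8 fall inside the mature miR-5100, so its seed is part of the motif. The hairpin of miR-202 lies at chr7:139957689-139957760 on the minus strand, within the long noncoding RNA gene Gm16201 of the plus strand. That of miR-6354, at chr1:169018974-169019089 on the minus strand, lies in no listed gene.

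Levels are log2 values of spot intensity, scaled so that arrays share 1 value of the 75th percentile, taken over 454 probes that every array detected. Values under a floor of 4.40 were set to it. All arrays lay on 1 slide. The 75th percentile before scaling ran from 196 to 425 in IMB, 213 to 267 in DOX and 300 to 349 in CTRL, and an array detected 258 to 339 mouse miRNAs. IMB pool 2 was the brightest array and IMB pool 1 the dimmest. The labels call the pools biological replicates, and with so few of them every error below is itself uncertain.

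Many miRNAs met the rule that chose the members: 32 of the 294 tested miRNAs (10.9%) had every IMB pool above both CTRL pools, and 20 (6.80%) had every IMB pool below. Leaving out 1 array, which makes the rule easier to meet, gave 32 to 69 and 20 to 68, the highest of both without IMB pool 1. Ordered by the gap between the lowest IMB and the highest CTRL pool, the members were the 1st (miR-7058-5p, gap 1.98), the 2nd (miR-5100, 0.79), the 5th (miR-6354, 0.63) and the 7th (miR-202-3p, 0.49) of the 32. Just inside the rule lay miR-705 with a gap of 0.02 and miR-6908-5p with 0.01. Just outside lay miR-6366 with -0.01 and miR-200a-3p with -0.02, and 41 miRNAs tied, with the lowest IMB pool and the highest CTRL pool at the floor. By the mean difference of IMB from CTRL the members ranked 2nd (miR-7058-5p), 5th (miR-6354), 6th (miR-5100) and 16th (miR-202-3p) of 294. Because the choice used IMB and CTRL, the values for that contrast are a description and carry no test; the fit over all miRNAs passed 3 of 294 there (1.02%).

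mmu-miR-7058-5p stood at 6.82, 7.23 and 7.18 in the IMB pools, at 5.51, 6.17 and 5.81 in the DOX pools and CTRL was at 4.84 and 4.53. The 3 groups did not overlap: CTRL was lowest, DOX between and IMB highest. IMB exceeded CTRL by 2.39 ± 0.23 (SE), or 5.26-fold. DOX exceeded CTRL by 1.14 ± 0.23 (SE), or 2.21-fold, with a 95% interval of 0.56 to 1.73. That difference did not pass limma's test (unadjusted p = 0.0034, adjusted p = 0.20 over 294 miRNAs; 0.061 to 1.0 over 26 alternatives), although all 3 DOX pools lay above both CTRL pools. IMB exceeded DOX by 1.25 ± 0.21 (SE), or 2.38-fold, with a 95% interval of 0.73 to 1.78. This missed the threshold of 0.05 as well (limma, adjusted p = 0.072; 0.0030 to 1.0 over 26 alternatives), and it passed in 7 of those 26. The lowest p, itself among the 7, came from the dimmest probe, which put all DOX and CTRL pools at the floor. There these pools have no spread, so that p does not measure their variation.

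mmu-miR-202-3p stood at 5.004, 5.07 and 5.06 in the IMB pools, at 4.53, 4.55 and 4.40 in the DOX pools and CTRL was at 4.50 and 4.51. The IMB pools lay close together above all others, while DOX and CTRL overlapped and lay near the floor, with DOX pool 3 on it. IMB exceeded CTRL by 0.54 ± 0.05 (SE), or 1.45-fold. IMB also exceeded DOX, where the miRNA was detected in 1 of 3 pools, by 0.55 ± 0.05 (SE) on the floored scale, and this passed limma's test (adjusted p = 0.0029; 0.0030 to 0.93 over 25 alternatives). DOX differed from CTRL by -0.02 ± 0.05 (SE), with a 95% interval of -0.14 to 0.11 (limma, adjusted p = 1.0).

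The call for miR-202-3p between IMB and DOX rests on small intensities and on an SE that depends on the floor. Before scaling, its intensity was 22.2, 50.4 and 37.6 in IMB, 17.3, 20.5 and 18.9 in DOX and 24.0 and 28.1 in CTRL, so IMB pool 1, the dimmest array, lay below both CTRL pools and rose above them through scaling. By spots well above background the miRNA was detected in 3 of 3 IMB, 2 of 2 CTRL and 1 of 3 DOX pools. Under normexp background correction the difference of IMB from DOX was 0.025 (adjusted p = 0.93) and IMB overlapped CTRL (gap -0.01). With a floor 4 times lower the difference of IMB from DOX was 0.58 ± 0.15 (SE; limma, adjusted p = 0.098). That of IMB from CTRL was then 0.54 ± 0.17 (SE), so the differences held while their errors grew. Of the levels of miR-202-3p itself only DOX pool 3 moved, from 4.40 to 4.33. limma's errors also draw on the other tested miRNAs, so the larger SE is not a wider spread of the IMB and CTRL pools. The call was lost in 9 of 25 alternatives.

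mmu-miR-6354 stood at 5.66, 6.54 and 6.48 in the IMB pools, at 5.19, 5.20 and 4.60 in the DOX pools and at 5.04 and 4.40 in the CTRL pools, the last on the floor though detected. IMB pools 2 and 3 were high and IMB pool 1 only a little above the other groups, which overlapped. IMB exceeded CTRL by 1.51 ± 0.37 (SE), or 2.85-fold. DOX exceeded CTRL by 0.28 ± 0.37 (SE), with a 95% interval of -0.65 to 1.20 (limma, adjusted p = 0.96). IMB exceeded DOX by 1.23 ± 0.33 (SE), or 2.35-fold, with a 95% interval of 0.41 to 2.06, and did not pass (limma, adjusted p = 0.23; 0.055 to 1.0 over 26 alternatives). Unscaled, IMB pool 1 was at 35.1 against 34.8 and 25.9 in CTRL, so its lead over CTRL pool 1 came almost wholly from scaling, while IMB pools 2 and 3 were at 139.8 and 101.

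mmu-miR-5100, far above the floor on every array, was at 11.19, 12.17 and 11.73 in the IMB pools, 11.84, 11.00 and 11.08 in the DOX pools and 10.40 and 10.13 in CTRL. Both CTRL pools were lowest, and DOX pool 1 lay above IMB pools 1 and 3, so the drugs overlapped. IMB exceeded CTRL by 1.43 ± 0.37 (SE), or 2.69-fold. DOX exceeded CTRL by 1.04 ± 0.37 (SE), or 2.06-fold, with a 95% interval of 0.11 to 1.97 (limma, adjusted p = 0.48; 0.23 to 1.0 over 26 alternatives). IMB and DOX differed by 0.39 ± 0.34 (SE), with a 95% interval of -0.45 to 1.22 (limma, adjusted p = 0.74). The interval leaves room for either drug to be higher, and leaving out 1 array moved the difference between 0.15 (without IMB pool 2) and 0.66 (without DOX pool 1).

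**Figure D1:**
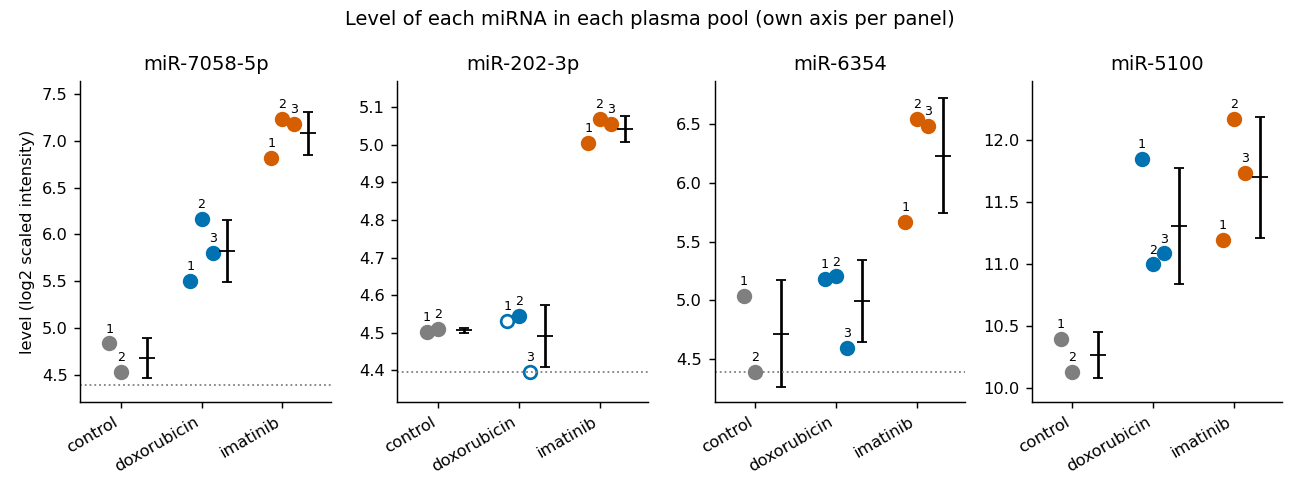
Level (log2 scaled intensity) of each miRNA in each plasma pool, with an axis of its own per panel; numbers give the replicate, open circles mark pools where the miRNA was not detected, bars give mean ± SD (n = 2 CTRL, 3 DOX, 3 IMB) and the dotted line the floor of 4.40. miR-7058-5p steps up from control through doxorubicin to imatinib, miR-202-3p and miR-6354 are highest in the imatinib pools with the other groups overlapping, and miR-5100 is above control in both drugs.

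Counted over members, 2 of 4 (miR-7058-5p and miR-5100) had every DOX pool above both CTRL pools, against 55 of 294 tested miRNAs (18.7%); none had every DOX pool below, against 29 (9.86%). Every IMB pool lay above every DOX pool for 3 of 4 (all but miR-5100), against 20 of 294 (6.80%), and none lay below, against 24 (8.16%). limma passed 0 of 4 members for DOX against CTRL, where 1 of 294 miRNAs passed upwards (0.340%). At an unadjusted p under 0.05 there were 2 members, against 25 of 294 miRNAs (8.50%). It passed 1 of 4 for IMB against DOX, where 2 of 294 were called higher (0.680%) and 1 lower (0.340%). Both comparisons share arrays with the one that chose the members, DOX against CTRL the controls and IMB against DOX the imatinib pools, so neither is independent of the choice. The median difference over all 294 miRNAs was 0.01 for IMB against CTRL and 0.00 for the others.

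**Figure D2:**
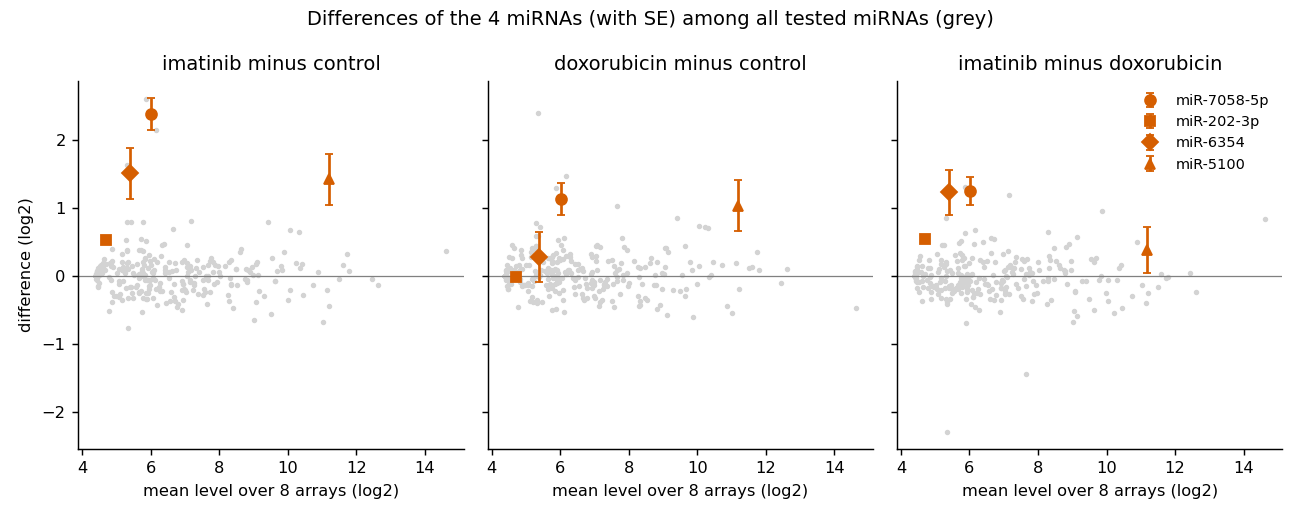
Difference (log2) of 3 comparisons against the mean level over 8 arrays for the 294 tested miRNAs (grey) and the members (orange, bars ± SE). By mean level miR-5100 lies well above the floor and miR-202-3p near it, with miR-6354 and miR-7058-5p in between. Of the 4, miR-7058-5p and miR-6354 stay above 1 for imatinib minus doxorubicin.

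Each member had a pair of probes with 15 spots each, and the probes of a member moved together. For miR-7058-5p the brighter probe was detected on all 8 arrays, and its scaled intensity was 190, 258 and 251 in IMB, 80.7, 123 and 96.6 in DOX and 49.5 and 41.1 in CTRL. The dimmer probe read 35.4, 43.1 and 40.1 in IMB and was detected there on 3 of 3 arrays, but on 0 of 3 DOX and 0 of 2 CTRL arrays. Both probes put the groups in the same order, and over the 8 arrays they correlated with r = 0.99 and rho = 1.0. The log2 difference of IMB from CTRL was 2.36 by the brighter probe; the dimmer probe was not well above background in CTRL and gives no exact difference there.

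The probes of miR-202-3p were of like brightness, between 19.3 and 36.1 on every array, and correlated with r = 0.92 and rho = 0.71. By both, every IMB array exceeded every other array. Each was detected on 6 of 8 arrays, and their spots varied more within an array (coefficient of variation 10.7% to 33.4%) than those of miR-5100 (1.91% to 4.95%). For miR-6354 the brighter probe was detected on all 8 arrays and the dimmer on 5, with r = 0.97 and rho = 0.95. In IMB pool 1 the dimmer probe of miR-6354 was not detected, and its reading of 26.8 was close to the 23.8 of DOX pool 2. For miR-5100 both probes were detected on all 8 arrays (r = 0.96, rho = 0.88) and gave differences of IMB from CTRL of 1.13 and 1.48. These correlations describe probes that share each array's RNA.

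**Figure D3:**
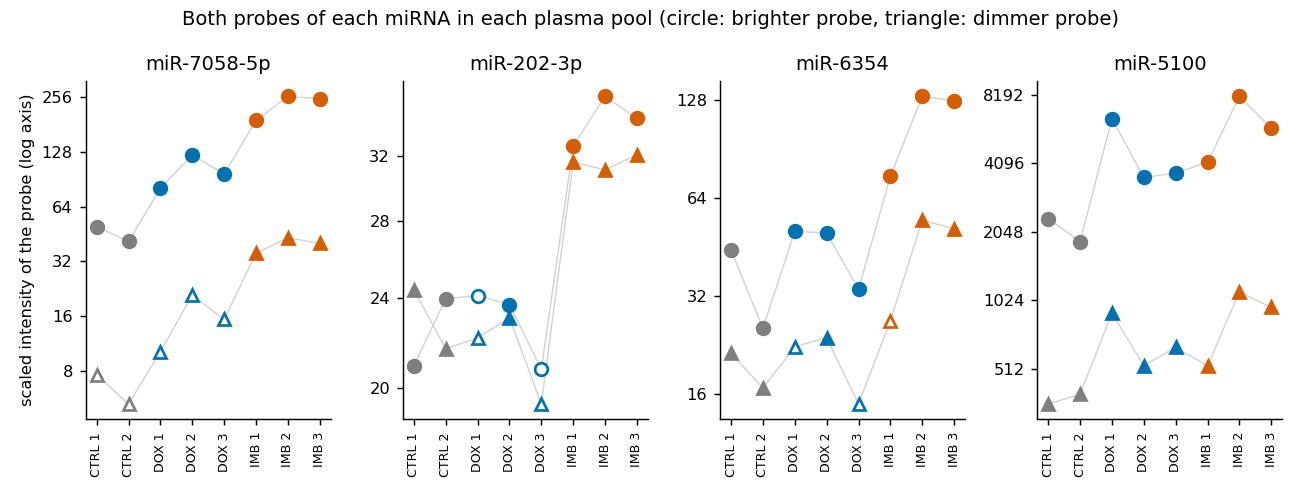
Scaled intensity (log axis, own range per panel) of both probes of each miRNA on each array; circles are the brighter probe, triangles the dimmer, and open symbols mark a probe not detected on that array. Both probes of each miRNA read higher on the 3 imatinib arrays than on the 2 control arrays, and the dimmer probe of miR-7058-5p is detected on the imatinib arrays alone.

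Agilent's own summary per miRNA, the total gene signal, is not scaled between arrays. It was 33.1, 123 and 69.7 in IMB, 12.8, 26.8 and 22.3 in DOX and 11.1 and 14.0 in CTRL for miR-7058-5p. For miR-202-3p it was 9.41, 27.4 and 15.96 in IMB, 7.36, 8.69 and 8.004 in DOX and 10.2 and 15.6 in CTRL, so before scaling IMB pool 1 was again the lowest of the IMB and CTRL pools. Agilent's detection flag was set for all 4 members on all 8 arrays, also where few spots were well above background.

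The total signal of miR-5100 was 686, 3746 and 1632 in IMB, 1169, 761 and 867 in DOX and 607 and 768 in CTRL. Its ratio to the mean processed signal was 0.424 on 6 arrays but 0.543 on IMB pool 2 and 0.554 on CTRL pool 2. For miR-7058-5p the ratio was lower than that of the other members on 3 arrays, at 0.377 on DOX pool 1, 0.368 on CTRL pool 1 and 0.491 on CTRL pool 2. Scaled, the total signal gave IMB minus DOX differences of 1.28 for miR-7058-5p (limma, adjusted p = 0.018) and 0.55 for miR-202-3p (adjusted p = 0.097). These miRNAs thus crossed the threshold in opposite directions while their differences hardly changed. The total signal also had a floor of its own. With the main summary, a floor 4 times lower moved them the same way (limma, adjusted p = 0.0075 and 0.098 in that order). The lower floor left every level of miR-7058-5p as it was, and its difference and SE stayed at 1.25 and 0.21. Its adjusted p thus moved there without a change in its own levels. The parts of summary and floor were not tested further.

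Within rows of the slide, the direction of IMB against CTRL was the same in both for all 4 members. The rule that chose the members fixes this direction, so only the sizes within rows are informative. In row 1 (DOX pools 1 and 2, IMB pool 1, CTRL pool 1) the differences were 1.98 for miR-7058-5p, 0.50 for miR-202-3p, 0.63 for miR-6354 and 0.79 for miR-5100. In row 2 they were 2.68, 0.55, 2.12 and 1.81 in the same order. For IMB against DOX, miR-5100 changed sign between rows (-0.23 and 0.86), while miR-7058-5p (0.98 and 1.40), miR-202-3p (0.47 and 0.67) and miR-6354 (0.47 and 1.92) did not. For those that did not, every IMB pool lay above every DOX pool, so their sign could not change.

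The opposite arms on the array were not detected. For miR-7058-3p, 0 of 235 kept spots were well above background over the 8 arrays, with a highest scaled intensity of 2.09. For miR-202-5p, 0 of 235 were, with a highest of 4.11. miR-202-5p is abundant in ovary and testis, so that marker of gonadal RNA was not detected in any pool.

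miRNAs catalogued beside the members were described for comparison, members included. Of 191 on the array whose catalogue number differs from that of miR-7058 in at most the last 2 digits, 27 were detected and 21 tested; their median difference of IMB from CTRL was 0.14 with miR-7058-5p and that of IMB from DOX 0.00. Of 66 near miR-6354 by the same rule, 10 were tested, with medians of 0.02 and 0.00, and of 36 near miR-5100, 11 were tested, with medians of 0.00 and -0.07. limma passed 0 of these for DOX against CTRL and 0 for IMB against DOX; at an unadjusted p under 0.05 there were 3, 0 and 3 for DOX against CTRL and 3, 1 and 1 for IMB against DOX in the 3 lists of 21, 10 and 11, members included, beside 25 (8.50%) and 32 (10.9%) of all 294. Among 167 tested miRNAs with a GC share of at least 50%, the lowest of the members, the median of IMB against CTRL was 0.05, beside 0.01 over all. The let-7 family with miR-98-5p had 7 tested of 10 on the array, with a median of -0.26 for DOX against CTRL and 0.09 for IMB against DOX, and 0 passed in either comparison (2 and 1 of 7 at an unadjusted p under 0.05, beside 8.50% and 10.9% of all tested).

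The likest profiles over the 8 arrays are given as a description, since the arrays share scaling and treatment groups and the choice of members by IMB and CTRL pools itself makes their profiles alike. miR-7058-5p was most like miR-6354 (r = 0.88, rho = 0.93), then miR-125a-3p (0.87, 0.83) and miR-202-3p (0.85, 0.83). miR-6354 was most like miR-202-3p (0.92, 0.93), then miR-710 (0.90, 0.88) and miR-2137 (0.89, 0.93). miR-5100 was most like miR-6538 (0.92, 0.93), miR-30c-5p (0.88, 0.71) and miR-125a-3p (0.87, 0.90), and at r = 0.61 to 0.79 with the other members. miR-202-3p was most like miR-144-3p (0.94, 0.57), a miRNA of red cell precursors, then miR-7044-5p (0.92, 0.74) and miR-103-3p (0.92, 0.79).

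miR-144-3p stood at 7.86, 7.78 and 7.82 in IMB, 6.66, 6.57 and 6.64 in DOX and 7.12 and 6.89 in CTRL. The red cell index, log2 miR-451a minus log2 miR-23a-3p, was 3.91, 4.45 and 3.90 in IMB, 3.15, 2.69 and 2.73 in DOX and 3.84 and 3.18 in CTRL. It was higher in every IMB pool than in every DOX pool, by 1.23 (exact permutation test, 2-sided, p = 0.10, the smallest that 3 against 3 allows; 0.15 adjusted over 3 comparisons). IMB exceeded CTRL by 0.57 (exact p = 0.10, the smallest for 3 against 2; adjusted 0.15) and DOX minus CTRL was -0.66 (exact p = 0.20, adjusted 0.20).

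Of 8 red cell markers, 7 were detected (all but miR-144-5p) and tested. Their summed level was 33472 to 42594 in IMB, 19350 to 28742 in DOX and 24372 to 39990 in CTRL, and their median difference of IMB from DOX was 0.58, with 1 passing (miR-144-3p). Against CTRL their median was 0.06 for IMB and -0.47 for DOX, where 0 of 7 lay above 0, beside 143 of 294 tested. miR-144-3p also passed for IMB against CTRL, at 0.82 (limma, adjusted p = 0.0077), where 3 of 294 passed. At an unadjusted p under 0.05 there were 4 of 7 for IMB against DOX, beside 10.9% of all tested. For DOX against CTRL there were 3, beside 8.50%, and for IMB against CTRL 1, beside 23 of 294. The index rests on miR-23a-3p as well, which differed by -0.21 for IMB against CTRL and by -0.40 for IMB against DOX. With the index as a covariate in the fit, IMB minus DOX was 1.18 for miR-7058-5p, 0.50 for miR-202-3p (adjusted p = 0.37), 0.23 for miR-6354 and -0.91 for miR-5100 (limma, adjusted p = 1.0 for these others). IMB minus CTRL was then 2.36, 0.51, 1.04 and 0.82 in that order. The index differs between the groups, so the covariate takes up part of the group difference, and the part of red cell RNA in the members' levels was not tested beyond this.

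**Figure D4:**
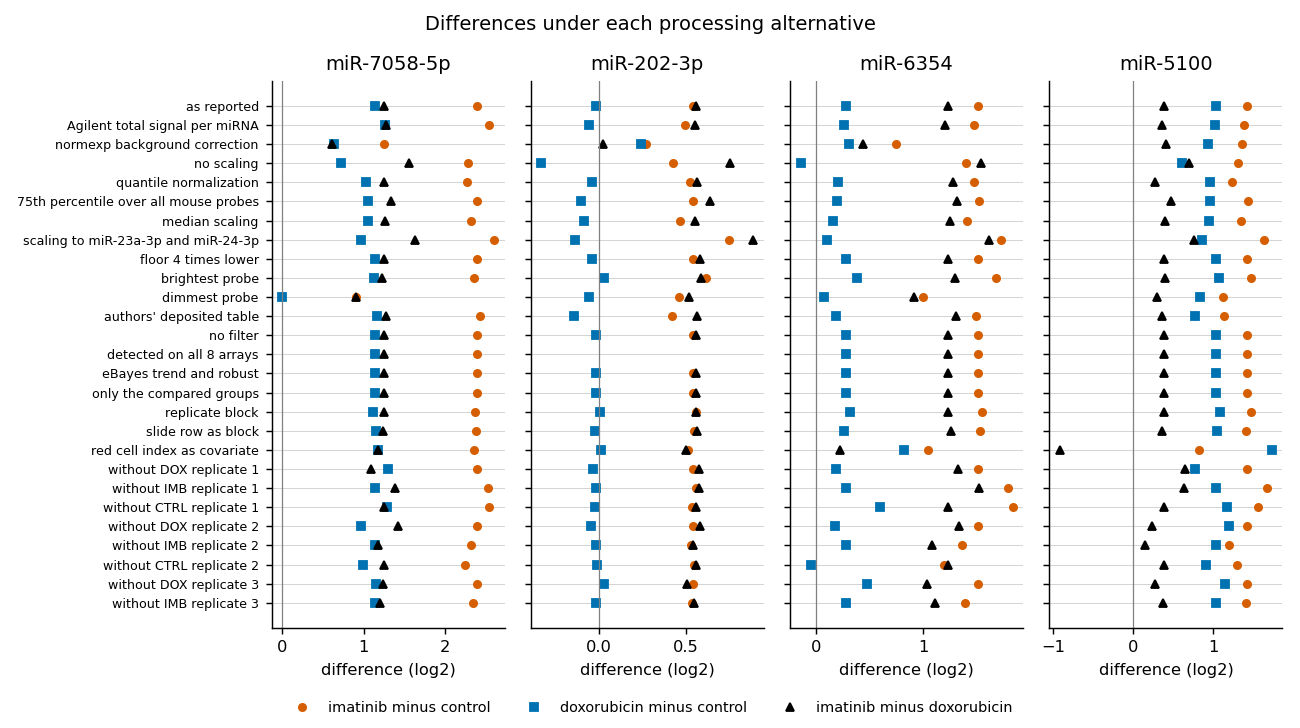
Differences (log2) of each miRNA under each processing alternative, 1 row per alternative and 1 panel per miRNA, for imatinib minus control (circles), doxorubicin minus control (squares) and imatinib minus doxorubicin (triangles). Imatinib minus control stays above 0 in every row, which the rule that chose the members fixes for rows with an array left out. The red cell covariate takes miR-5100 to -0.91 for imatinib minus doxorubicin.

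Markers of other sources behaved as follows, without a test of their part in the members' levels. Platelet markers (3 tested of 4 on the array; miR-191-5p not detected) had medians of -0.21 for IMB against CTRL and 0.21 for DOX against CTRL, with summed levels of 2443 to 3173 in IMB, 3782 to 3917 in DOX and 3074 to 3475 in CTRL. Myeloid markers (4 of 4 tested) had medians of -0.33 and -0.23, and lymphocyte markers (3 tested of 4) -0.37 and -0.29. Summed levels were 2814 to 4162, 3613 to 5063 and 4486 to 4555 for myeloid and 326 to 722, 407 to 509 and 482 to 626 for lymphocyte markers in IMB, DOX and CTRL.

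Liver markers (4 of 4 tested) had medians of 0.43 for IMB and 0.50 for DOX against CTRL, with miR-122-5p, the main miRNA of hepatocytes, at 0.65 ± 0.61 and 0.70 ± 0.61 (SE). Their summed levels were 1180 to 3210 in IMB, 1937 to 2648 in DOX and 1305 to 1594 in CTRL. Muscle markers (3 tested of 4; miR-206-3p not detected) had medians of 2.16 and 1.30, with summed levels of 118 to 1133 in IMB, 129 to 330 in DOX and 91.0 to 91.2 in CTRL. Of the platelet, myeloid, lymphocyte, liver and muscle markers, 0 passed limma's test in any comparison. At an unadjusted p under 0.05 there was 1 for IMB against DOX, miR-223-3p at -0.48, which stands in both the platelet and the myeloid list, beside 10.9% of all tested; for DOX against CTRL there was 0, beside 8.50%, and for IMB against CTRL 1, miR-194-5p of the liver list at 0.80, beside 23 of 294.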

How the data were processed

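Plasma RNA of 8 pools was labelled with Cy3 and hybridised to 1-colour Agilent miRNA arrays on 1 slide. Spot intensity in the deposited scanner files comes from Agilent Feature Extraction 11.5.1.1, per the submitters' processing notes. The processed intensity has the background subtracted and no scaling between arrays, per the file headers. The authors also deposited a table of 1902 rows of log2 values, used as an alternative. Its scaling and centring are not given in the sources used here (column medians -3.32 to -3.20). Coordinates are RefSeq's on GRCm38.p6; the array design names mm9, and no coordinate was taken from it.

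A probe's signal is the mean processed signal of its spots without outliers. It counted as detected with over 50% of these spots well above background, and a miRNA with at least 1 such probe. Arrays were scaled to the 75th percentile over 454 probes, probes of a miRNA averaged, floored at 21.1 (log2 4.40) and put on the log2 scale. No spot was saturated. Tests covered 294 mouse miRNAs, each detected in all pools of 1 group or more, using limma 3.58.1 in R 4.3.3 (lmFit, eBayes, 2-sided) on all 8 arrays, with 5 residual degrees of freedom, Benjamini-Hochberg adjustment within a comparison and a threshold of 0.05. The limma fit, without the steps before it, was tested on simulated data in which every miRNA varied. Alternatives covered signal, background, scaling, floor, probes, filter, variance model, blocks, the red cell index, the authors' table and each array left out. The normexp correction (offset 50) used the median spot signal.

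The members and lists were chosen with earlier results of these data known. Named miRNAs are the members, their other arms and seed mates, the 3 likest profiles of each and up to 2 markers per list by mean level; the let-7 list and the dimmest probe were added after seeing the data, and other marker examples are given only as medians.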

Additional observations from a re-analysis of the deposited data

How the results depend on the processing

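The values of IMB minus CTRL kept their sign in all 26 alternatives for 3 members and in all 25 run for miR-202-3p, which is filtered out where detection on all 8 arrays is required. Many of these alternatives could not change the sign. With an IMB or CTRL array left out, the rule that chose the members fixes it. The filters, the variance model, a DOX array left out and a fit of only the compared groups leave the value itself unchanged. All IMB pools lay above both CTRL pools for 4 members, or for 3 with no scaling and with normexp, where miR-202-3p overlapped, and with that filter. Moves are set against the SE of the main difference, which for miR-202-3p is 0.05 and depends on the floor. Values that moved by more than that SE were 1.25 (normexp) and 0.90 (dimmest probe) for miR-7058-5p. For miR-202-3p they were 0.27 (normexp), 0.42 (no scaling), 0.46 (median scaling), 0.75 (scaling to the mean of miR-23a-3p and miR-24-3p, below reference miRNA scaling), 0.61 (brightest probe), 0.46 (dimmest probe) and 0.42 (authors' deposited table). For miR-6354 they were 0.75 (normexp), 0.996 (dimmest probe) and 1.04 (red cell covariate), and for miR-5100 0.82 (red cell covariate). The causes were not tested.

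For IMB minus DOX, limma passed 1 member, but 0 with no scaling, with the 75th percentile over all mouse probes, with reference miRNA scaling, with the authors' table and with the red cell covariate, and 2 with the dimmest probe. Leaving out 1 array gave 1 to 2, the 2 without IMB replicate 1. miR-202-3p lost its call with Agilent's total signal (0.55), normexp (0.025), no scaling (0.75), the 75th percentile over all mouse probes (0.64), reference miRNA scaling (0.88), a floor 4 times lower (0.58), the brightest probe (0.59), the authors' table (0.56) and the red cell covariate (0.50). miR-7058-5p gained one with Agilent's total signal (1.28), normexp (0.62), the lower floor (1.25), the brightest probe (1.23), the dimmest probe (0.90, with all DOX pools at the floor) and the filter to miRNAs detected on all 8 arrays (1.25). With 1 array left out its difference ran from 1.09 to 1.42, and it passed without IMB replicate 1. miR-5100 reversed to -0.91 with the red cell covariate.

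DOX minus CTRL passed 0 members in every alternative. Its value for miR-202-3p reversed to 0.24 (normexp), 0.028 (brightest probe), 0.0051 (replicate block), 0.015 (red cell covariate) and, over arrays left out, ran from -0.043 to 0.032. For miR-6354 it reversed to -0.14 with no scaling and ran from -0.042 to 0.60 with 1 array left out. With the dimmest probe all DOX and CTRL pools of miR-7058-5p were at the floor.

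Over all tested miRNAs, IMB minus CTRL passed 3, but 1 with Agilent's total signal, normexp, median scaling, the lower floor and the authors' table, and 0 with no scaling, the 75th percentile over all probes, reference miRNA scaling, no filter and the red cell covariate; leaving out 1 array gave 0 to 12, the 12 without IMB replicate 1. DOX minus CTRL passed 1, but 2 with Agilent's total signal, the 75th percentile over all probes, the lower floor and the authors' table, and 0 with no filter, only the compared groups, the replicate block and the red cell covariate, or 0 to 2 with 1 array left out. IMB minus DOX passed 3, but 5 with Agilent's total signal, normexp and the lower floor, 0 with the red cell covariate, and 3 to 20 with 1 array left out, the 20 without IMB replicate 1. The split of 32 miRNAs with every IMB pool above CTRL and 20 below became 6 and 27 with no scaling, 17 and 26 with the 75th percentile over all probes, 26 and 34 with quantile normalization, 23 and 35 with median scaling, and 61 and 7 with reference miRNA scaling. For DOX against CTRL 55 and 29 became 7 and 146 with no scaling, 29 and 75 with reference miRNA scaling and 145 and 17 with normexp, and for IMB against DOX 20 and 24 became 23 and 2, and 78 and 2. With 1 array left out the splits ran from 32 to 69 and 20 to 68 (IMB against CTRL; 54 and 46 without CTRL replicate 1, 55 and 46 without CTRL replicate 2, 54 and 37 without IMB replicate 3), 55 to 91 and 29 to 66 (DOX against CTRL, highest without CTRL replicate 2) and 20 to 55 and 24 to 72 (IMB against DOX, highest without IMB replicate 1). The median difference of all miRNAs moved to -0.32 (DOX minus CTRL) and 0.23 (IMB minus DOX) with no scaling, to 0.17 and -0.12 with normexp, and to 0.19 (IMB minus CTRL) and 0.30 (IMB minus DOX) with reference miRNA scaling.

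Of 7 same-numbered pairs of pools, correlations of deviations from group means ran from -0.24 to 0.40, and 2 were over 0.1. The other 14 pairs ran from -0.46 to 0.47. With so few pools in a group their deviations are tied to each other, so this cannot show whether replicate numbers pair the pools. With the replicate number as a block, IMB minus DOX of miR-202-3p was 0.55 (limma, adjusted p = 0.032) and no other call of a member changed. Signal over background limits miR-202-3p, whose DOX and CTRL pools lie within 0.15 of the floor.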
